A study of Mus musculus with 4 samples.

Results

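The genes described here are *Trp53*, the transcription factor that answers DNA damage and other stress, and a set of its known target genes and regulators, measured in *Ddb1*-deficient and control hematopoietic progenitors of the mouse fetal liver. The set lists 35 genes by symbol, named for their role in the pathway. A gene was measured where a probe set carried its symbol alone, and where several did, the brightest one over the 4 arrays stood for the gene. By this rule 32 of the 35 genes were measured, out of 20523 genes in all. *Sesn1*, *Ppm1d* and *Sfn* are named only on probe sets that list several genes, and they are given no value.

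The *Ddb1*-deficient group had the genotype DDB1 flox/flox, VavCre+ and the control group DDB1 flox/flox, VavCre-, so that by the labels both carried the floxed allele and differed by the Cre. A heat map in the study heads the controls Cre+, and the labels were followed here. Both groups were of the strain C57BL/6x129, and lineage-negative, Sca1-positive, Kit-positive (LSK) cells, a population enriched for stem cells and multipotent progenitors, were sorted from fetal livers at E16.5 (embryonic age in days). The *Vav1* promoter drives Cre in all hematopoietic lineages. Each group had 2 samples with 1 Affymetrix Mouse430_2 array each, and whether a sample held 1 embryo or a pool was not given in the sources used here.

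Trp53 protein is held low by Mdm2 and Mdm4 and is stabilized mainly after translation, so its activity is usually read from its targets and not from its own mRNA. The targets stop the cell cycle, repair DNA, adjust metabolism or drive cell death, and in the blood system the pathway limits stem and progenitor cells after DNA damage. Several targets, *Mdm2* and *Ccng1* among them, feed back to restrain Trp53.

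*Ddb1* itself read log2 4.58 and 4.33 on the *Ddb1*-deficient arrays, against 6.06 and 6.26 on the control arrays, a difference of -1.70 in the direction of the labels (adjusted p = 0.16 by limma). Values throughout are log2 of the RMA intensity, and a probe set near the median of all probe sets, log2 2.08, is dim. Across genes, Pearson's r was 0.940 between the *Ddb1*-deficient arrays and 0.970 between the control arrays. *Kit* and *Ly6a* (Sca1), the positive markers of the sort, differed by -0.27 and 0.12. *Ptprc* (CD45), which is not named in the sort, differed by 0.04. Marker lists of other cells were not even between the groups: 12 of 12 macrophage, 5 of 8 endothelial, 4 of 7 erythroid and 3 of 6 hepatoblast markers were higher in *Ddb1*-deficient arrays at an unadjusted p under 0.05, as were 6 of 8 markers of hematopoietic stem cells. All 6 neutrophil markers were lower by this measure, but only 1 of 5 B lineage markers was, and 3 of the 5 overlapped between the groups. The summed B lineage level was 3679 and 192 on the *Ddb1*-deficient arrays, against 4758 and 6907 on the control arrays. Below the median on every array were the erythroid *Hba-a1* and the hepatoblast *Serpina1a*. In each group 1 array was high in *Xist* and the other in *Kdm5d*, so sex was balanced. In bulk samples, fewer cells of a type and less RNA per cell cannot be told apart, and the part of these cells in the differences below was not tested.

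No member passed the test, and the members did not all go one way. Of the 32 measured genes, 0 were called at an adjusted p under 0.05 by limma, beside 0 of 20523 genes (0%), and the methods' t-test also called 0 after the Benjamini-Hochberg adjustment. At an unadjusted p under 0.05, limma gave 4 members higher in *Ddb1*-deficient cells, *Eda2r*, *Pltp*, *Gadd45a* and *Zmat3*, beside 4.90% of all genes. It gave 1 member lower, *Trp53inp1*, beside 6.05% of all genes. The methods' t-test gave 3 higher, *Eda2r*, *Pltp* and *Ddit4*, and 1 lower, again *Trp53inp1*. Without control replicate 1, and likewise without control replicate 2, limma gave 2 members higher, *Eda2r* and *Pltp*, and the same 1 lower. Both *Ddb1*-deficient arrays stood above both control arrays for 12 members, where 22.6% of all genes did so, and below them for 4, where 18.5% did so. For the other 16 members the arrays of the groups overlapped. The median difference, *Ddb1*-deficient minus control, was 0.19 over the members and 0.03 over all genes, and 21 members lay above 0, as did 54.3% of all genes. In 26 members the higher group was above the median probe set, as in 12486 of all genes. Of these 26, 11 were separate and higher and 4 separate and lower, beside 2631 and 3144 of the 12486. At an unadjusted p under 0.05 by limma, 949 of the 12486 were higher and 1222 lower. The smallest adjusted p of any gene on the array was 0.132, which *Eda2r* shared. With 2 arrays a group an exact permutation test cannot go below p = 0.333, the number of arrays limits the precision, and the p-values rest on the spread among these samples alone, part of which may be technical.

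**Figure D1:**
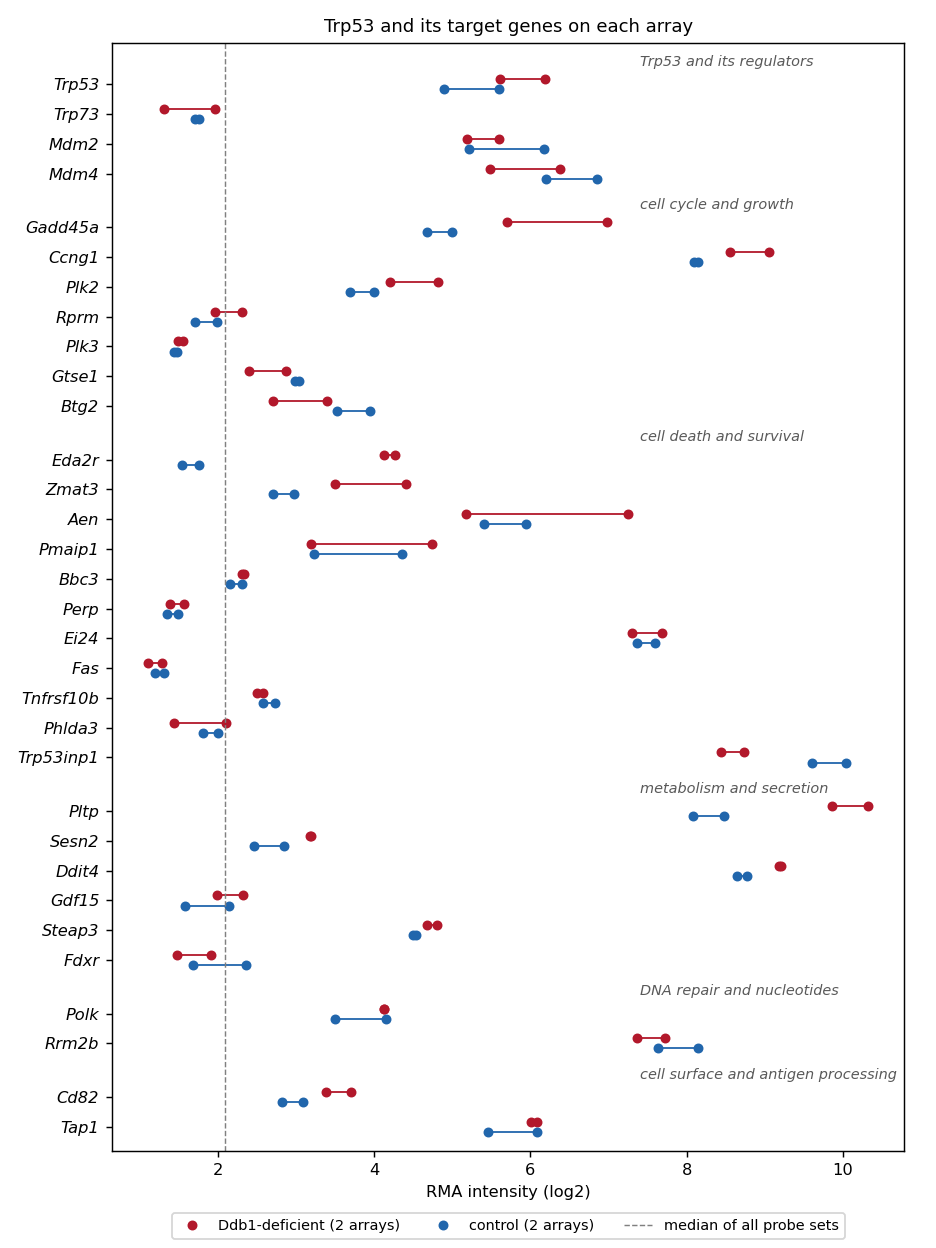
RMA intensity (log2, horizontal axis) of the 32 measured genes on each array, grouped by role, with 2 *Ddb1*-deficient arrays (red) joined by a line above 2 control arrays (blue) and the median of all probe sets dashed. *Eda2r* sits at 4.13 and 4.27 in *Ddb1*-deficient cells and below the dashed line in control cells, while the *Ddb1*-deficient arrays of *Aen* and *Pmaip1* lie farther from each other than the groups do.

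The 3 measured regulators of the core loop are *Trp53*, *Mdm2*, the ubiquitin ligase that degrades Trp53, and *Mdm4*, its relative that blocks the transcriptional activity of Trp53. *Trp53* read 6.19 and 5.61 on the *Ddb1*-deficient arrays, against 5.60 and 4.89 on the control arrays. The arrays were separate by only 0.01, the lower *Ddb1*-deficient array being level with the higher control array. The difference of 0.65 had a 95% interval of -0.37 to 1.67 and an adjusted p of 0.629 by limma. A second probe set of *Trp53* read 5.22 and 3.60 on the *Ddb1*-deficient arrays, against 4.40 and 3.26 on the control arrays. The groups overlapped on it, with a difference of 0.58. The mean of all probe sets of the gene gave 0.14, the others having group means at or below the median of all probe sets. *Mdm2* read 5.19 and 5.60 on the *Ddb1*-deficient arrays, against 5.21 and 6.17 on the control arrays. Here the groups overlapped, and the difference of -0.30 (95% interval -1.43 to 0.84, adjusted p = 0.856) changed sign to 0.18 without control replicate 2. *Mdm4* read 6.38 and 5.48 on the *Ddb1*-deficient arrays, against 6.85 and 6.20 on the control arrays, also overlapping, with a difference of -0.60 (-1.79 to 0.60, adjusted p = 0.706). The group mean of *Mdm2*, a direct and usually quick target, was not higher in *Ddb1*-deficient cells on any probe set: its other probe sets gave -0.28 and -0.72. On the first of these the *Ddb1*-deficient arrays, at 6.23 and 4.51, fell on either side of the control arrays, at 5.40 and 5.90. The interval of the brightest *Mdm2* probe set runs up to 0.84, so it includes a rise. *Trp73*, a relative of *Trp53*, was below the median on every array and differed by -0.09.

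**Figure D2:**
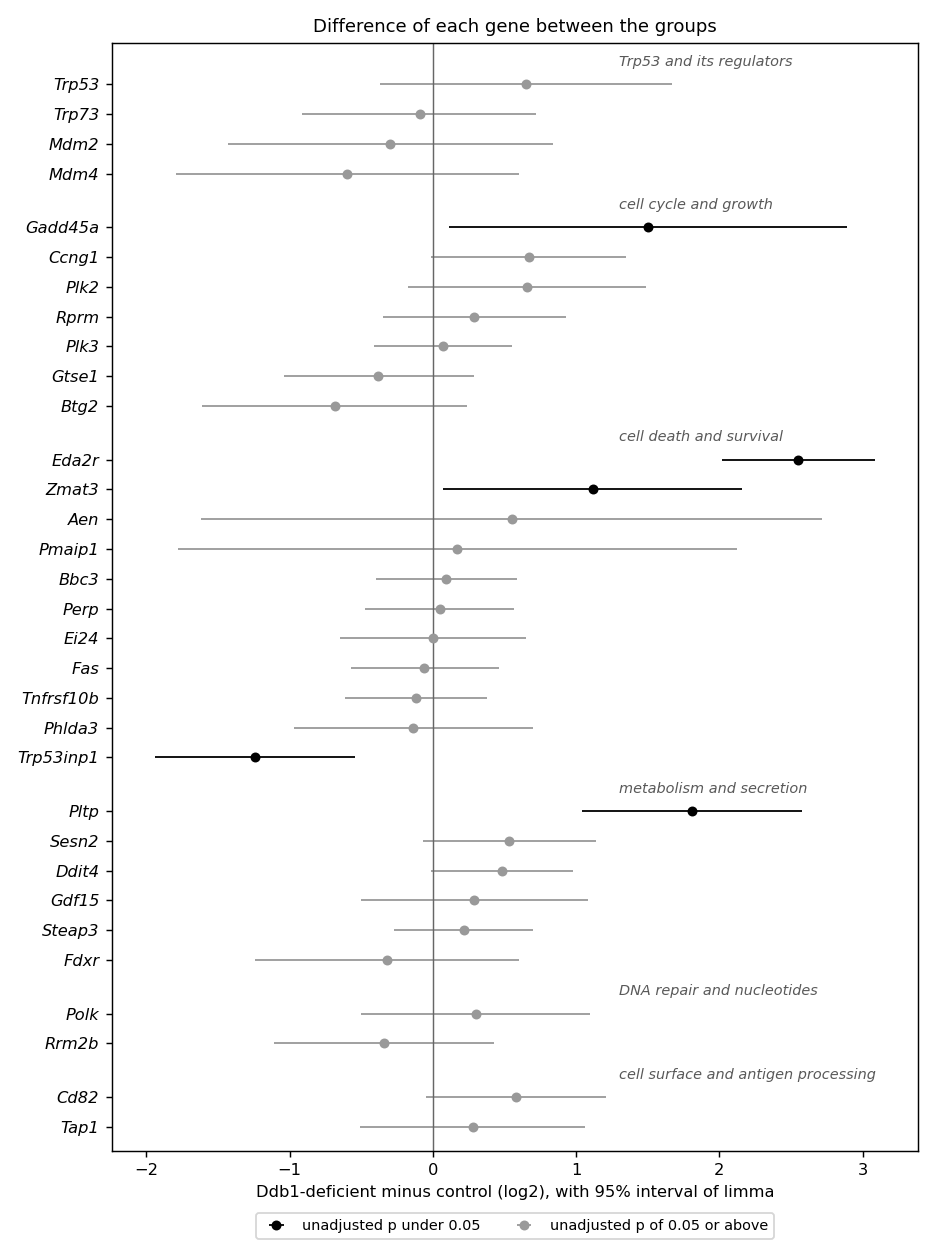
Difference of each gene, *Ddb1*-deficient minus control (log2, horizontal axis), with the 95% interval of limma as bars and black marking an unadjusted p under 0.05. Of the 5 black genes 4 lie to the right, *Eda2r* farthest at 2.55, and *Trp53inp1* lies to the left at -1.24.

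Of the 7 measured genes that act on the cell cycle and growth, 4 had separate arrays with the *Ddb1*-deficient group higher and 2 with it lower, where 22.6% and 18.5% of all genes did so. One of the 4, *Plk3*, was dim and differed by 0.07. *Gadd45a*, a stress sensor that halts the cycle and takes part in DNA repair, read 6.98 and 5.70 in *Ddb1*-deficient cells, against 4.68 and 5.0 in control cells. Both *Ddb1*-deficient arrays were higher, replicate 1 by far, and they lay 1.28 apart. The difference was 1.50, or 2.83-fold (95% interval 0.11 to 2.89, adjusted p = 0.435 by limma), and was 0.86 without *Ddb1*-deficient replicate 1. *Ccng1*, cyclin G1, which recruits a phosphatase to Mdm2, read 8.55 and 9.05 in *Ddb1*-deficient cells, against 8.15 and 8.10 in control cells. The lower *Ddb1*-deficient array stood 0.40 above both control arrays, and the difference was 0.67, or 1.60-fold (-0.01 to 1.35, adjusted p = 0.458). The groups overlapped on both other probe sets of *Ccng1*: a nearly as bright one read 8.09 and 8.48 in *Ddb1*-deficient cells, against 8.05 and 8.15 in control cells, a difference of 0.19, and a dimmer one gave 0.53. *Plk2*, a polo-like kinase of centriole duplication, differed by 0.66 with separate arrays (adjusted p = 0.549). *Plk3*, a stress-responsive kinase of the same family, was below the median on every array.

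*Btg2* and *Gtse1* were lower. *Btg2*, an antiproliferative adaptor of the mRNA deadenylase complex, read 2.70 and 3.39 in *Ddb1*-deficient cells, against 3.52 and 3.94 in control cells, with the higher *Ddb1*-deficient array 0.13 below the lower control array. The difference was -0.68 (-1.61 to 0.24, adjusted p = 0.582), and a dimmer probe set of the gene gave -1.73. *Gtse1*, a microtubule-binding protein of dividing cells that moves Trp53 out of the nucleus, read 2.87 and 2.40 in *Ddb1*-deficient cells, against 3.03 and 2.98 in control cells. These arrays were separate by 0.12, less than the 0.47 between the *Ddb1*-deficient arrays, and the difference was -0.38 (adjusted p = 0.667). *Rprm* (Reprimo), an inhibitor of mitotic entry, lay near the median at 2.13 ± 0.23 in *Ddb1*-deficient and 1.84 ± 0.20 in control cells (SD, n = 2 each).

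Promoter windows of 300 bases, 250 before to 50 after each transcript start (RefSeq, GRCm38.p6), were read for 29 of the 35 genes and searched for the p53 response element, a pair of adjacent 10-base blocks that reads the same on both strands. A window with at most 1 departure from the 20-base element was found for *Ccng1* and *Gtse1*, and with at most 2 also for *Trp73*; over all 32851 windows the shares were 0.0883% and 0.798%. A single 10-base block with no departure stood in 11 of 44 member windows (25%), against 8.36% of all windows, and the windows of a gene can overlap. The 3 windows below belong to measured members of this group, with the element of *Ccng1* and *Gtse1* and the single block of *Gadd45a* in capitals. They are examples of genes named above that carry such letters beside their start. *Trp53* and *Mdm2*, also named above, hold a single block that starts at -75 and at -186, and their windows and that of *Trp73* are not shown. The 3 shown were picked after their values were seen, none of the 3 passed the test, and nothing is read from their directions.
Ccng1, chr11:40755237-40755536, minus strand: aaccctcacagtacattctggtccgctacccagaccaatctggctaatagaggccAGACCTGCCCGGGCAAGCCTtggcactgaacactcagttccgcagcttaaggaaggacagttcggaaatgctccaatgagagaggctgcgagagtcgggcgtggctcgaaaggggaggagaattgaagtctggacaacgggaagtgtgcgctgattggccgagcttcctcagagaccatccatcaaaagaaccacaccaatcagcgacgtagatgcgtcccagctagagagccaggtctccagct
Gtse1, chr15:85859696-85859995, plus strand: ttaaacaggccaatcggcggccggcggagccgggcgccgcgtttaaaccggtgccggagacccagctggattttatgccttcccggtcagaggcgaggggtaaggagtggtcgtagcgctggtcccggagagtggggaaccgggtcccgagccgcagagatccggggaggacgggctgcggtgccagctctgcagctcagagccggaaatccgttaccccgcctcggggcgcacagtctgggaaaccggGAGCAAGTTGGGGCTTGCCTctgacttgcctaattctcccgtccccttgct
Gadd45a, chr6:67037358-67037657, minus strand: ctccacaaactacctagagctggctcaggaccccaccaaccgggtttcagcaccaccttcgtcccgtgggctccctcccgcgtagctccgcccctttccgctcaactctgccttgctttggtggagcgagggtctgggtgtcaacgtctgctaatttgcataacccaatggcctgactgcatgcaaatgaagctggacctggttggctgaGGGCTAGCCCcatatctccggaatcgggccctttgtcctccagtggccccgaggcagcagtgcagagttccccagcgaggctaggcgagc
In *Ccng1* the element starts at position -195 from the transcript start, in *Gtse1* at -1, and in *Gadd45a* the block starts at -40. A match is a description of letters and not a bound site.

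The 11 genes of cell death and survival held both the gene that was farthest up and the gene that was farthest down among the members, and 7 of them overlapped between the groups, as did 12095 of 20523 genes. *Eda2r*, an X-linked receptor of the tumor necrosis factor family that binds ectodysplasin A2, read 4.13 and 4.27 in *Ddb1*-deficient cells, against 1.54 and 1.75 in control cells. Both control arrays were below the median of all probe sets and both *Ddb1*-deficient arrays well above it, 2.38 apart at the nearest. The difference was 2.55, or 5.87-fold (95% interval 2.02 to 3.09, adjusted p = 0.132 by limma), and the gene ranked 24 of 20523 by p. The methods' t-test and a fit with the replicate number as a block, on the same 4 arrays, also gave an unadjusted p under 0.05. With 1 array left out the difference of *Eda2r* ran from 2.45 to 2.66. Between the *Xist*-high and *Kdm5d*-high arrays of a group the gene differed by 0.14 in *Ddb1*-deficient and 0.21 in control cells. The fold is uncertain in size, since the control level was at or below the dim end of the array. Its promoter window, printed because this gene had the largest difference of the set, held neither the 20-base element nor a single block.
Eda2r, chrX:97377160-97377459, minus strand: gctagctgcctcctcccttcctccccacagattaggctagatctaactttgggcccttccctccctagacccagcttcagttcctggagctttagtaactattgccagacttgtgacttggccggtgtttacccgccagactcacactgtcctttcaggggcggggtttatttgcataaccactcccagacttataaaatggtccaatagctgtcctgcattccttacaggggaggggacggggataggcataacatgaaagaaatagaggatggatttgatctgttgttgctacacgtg
No match says only that these letters are not in this window.

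*Trp53inp1*, a nuclear protein that promotes autophagy and cell death and is itself a Trp53 target, went the other way. It read 8.73 and 8.44 in *Ddb1*-deficient cells, against 9.61 and 10.04 in control cells. Both *Ddb1*-deficient arrays were lower by at least 0.88, in a bright gene, and the difference was -1.24, with control 2.36-fold above *Ddb1*-deficient cells (-1.94 to -0.54, adjusted p = 0.262 by limma). The other probe set gave -1.10, also with separate arrays. On the same 4 arrays the unadjusted p was also under 0.05 by the methods' t-test and with the replicate number as a block. With 1 array left out the difference ran from -1.46 to -1.02.

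*Zmat3*, a zinc finger protein that binds RNA, read 3.50 and 4.40 in *Ddb1*-deficient cells, against 2.97 and 2.70 in control cells. The arrays were separate by 0.53 while the *Ddb1*-deficient arrays lay 0.90 apart. The difference was 1.12, or 2.17-fold (0.07 to 2.16, adjusted p = 0.437), and with 1 array left out it ranged from 0.67 to 1.57.

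*Pmaip1* (Noxa), a BH3-only protein, read 3.19 and 4.74 in *Ddb1*-deficient cells, against 4.35 and 3.23 in control cells, so that each group held a high and a low array. *Bbc3* (Puma), the other BH3-only protein of the set, was dim at 2.32 ± 0.02 in *Ddb1*-deficient and 2.22 ± 0.11 in control cells (SD, n = 2 each). *Aen*, a nuclease that enhances apoptosis, read 7.25 and 5.18 in *Ddb1*-deficient cells, against 5.41 and 5.94 in control cells, the *Ddb1*-deficient arrays falling on either side of the control arrays. The death receptor *Fas* was below the median on every array and differed by -0.06. *Tnfrsf10b*, the TRAIL receptor, read 2.58 and 2.50 in *Ddb1*-deficient cells, against 2.58 and 2.73 in control cells, separate by 0.01 and different by -0.12 (adjusted p = 0.874). *Perp*, a desmosomal membrane protein, and *Phlda3*, an inhibitor of Akt, had means below the median in both groups. *Ei24*, a membrane protein of the endoplasmic reticulum, was bright and had a mean of 7.49 in both groups. For *Pmaip1* and *Aen* the intervals ran from -1.78 to 2.12 and from -1.62 to 2.72, so that a wide range of differences in either direction was not excluded.

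Of the 6 measured genes of metabolism and secretion, 1, *Pltp*, was higher at an unadjusted p under 0.05. With it 4 were separate and higher, where 22.6% of all genes were. *Pltp*, phospholipid transfer protein, which moves lipids between plasma lipoproteins and is made by liver cells and macrophages among others, read 9.86 and 10.33 in *Ddb1*-deficient cells, against 8.08 and 8.48 in control cells. Both *Ddb1*-deficient arrays were higher, by at least 1.38, and the difference was 1.81, or 3.51-fold (95% interval 1.04 to 2.58, adjusted p = 0.198 by limma). A dimmer probe set gave 1.60. The unadjusted p was also under 0.05 by the methods' t-test and with the replicate number as a block, on the same 4 arrays. With 1 array left out the difference of *Pltp* ran from 1.58 to 2.05. Beside it, the summed linear level of the 12 macrophage markers was 17640 and 21056 in *Ddb1*-deficient cells, against 2826 and 4246 in control cells, and that of the 8 endothelial markers was 148 and 166 in *Ddb1*-deficient cells, against 44.9 and 60.8 in control cells. The 6 hepatoblast markers summed to 675 and 926 in *Ddb1*-deficient cells, against 159 and 187 in control cells. Their part in the level of *Pltp* was not tested.

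*Ddit4* (Redd1), an inhibitor of mTORC1 that stress induces, read 9.21 and 9.18 in *Ddb1*-deficient cells, against 8.64 and 8.78 in control cells. The replicates were close, and the difference of 0.48 (-0.01 to 0.98, adjusted p = 0.461) was larger than the gap within either group, 0.03 and 0.14. *Sesn2*, which restrains mTORC1 in response to leucine and stress, read 3.18 and 3.19 in *Ddb1*-deficient cells, against 2.46 and 2.84 in control cells, a difference of 0.53 (-0.07 to 1.14, adjusted p = 0.506). On the probe sets used, both of these brakes on mTORC1 stood higher on every *Ddb1*-deficient array, without passing the test. On the other probe set of *Sesn2* the groups overlapped. There *Ddb1*-deficient replicate 2, at 1.49, lay below both control arrays, at 2.46 and 1.68. Both genes were added after their values were seen, and 22.6% of all genes were separate and higher. *Steap3*, an iron reductase of erythroid endosomes, differed by 0.22 with separate arrays (adjusted p = 0.743), beside a summed erythroid marker level of 1728 and 2089 in *Ddb1*-deficient cells and 153 and 670 in control cells, whose part was not tested. *Gdf15*, a secreted stress cytokine, lay near the median and overlapped, at 2.15 ± 0.23 in *Ddb1*-deficient and 1.86 ± 0.39 in control cells (SD, n = 2 each). *Fdxr*, the mitochondrial ferredoxin reductase, had means below the median in both groups.

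Of the remaining members, *Cd82*, a tetraspanin of the cell surface, read 3.70 and 3.38 in *Ddb1*-deficient cells, against 2.82 and 3.09 in control cells. Its arrays were separate by 0.28, and the difference was 0.58 (-0.05 to 1.21, adjusted p = 0.492). *Tap1*, the peptide transporter of antigen presentation, differed by 0.28 and *Polk*, a polymerase that copies past DNA lesions, by 0.30, both with overlapping arrays. *Rrm2b*, the Trp53-induced subunit of ribonucleotide reductase, overlapped on its brightest probe set with a difference of -0.34, at 7.55 ± 0.24 in *Ddb1*-deficient and 7.88 ± 0.36 in control cells (SD, n = 2 each). Its other probe sets did not give a single answer: the next brightest pair gave -2.34 and -2.55 with separate arrays, and the dimmest gave -0.14.

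The size of a difference depended on the choice of probe set. Of the members, 16 had several probe sets, with 31 beside those used. In 16 of these the mean of the higher group was above the median, and 15 had the sign of the probe set used. The exception was *Aen*, at -0.36, where the brightest probe set gave 0.55. As the mean of all probe sets, *Mdm4* differed by -0.32, *Cd82* by 0.30, *Tap1* by 0.05, *Polk* by 0.17 and *Sesn2* by 0.85. *Rrm2b*, *Aen* and *Btg2* differed by -1.34, -0.10 and -1.21 as such means, against -0.34, 0.55 and -0.68 on the probe set used. *Sesn2* had a further probe set at 1.17 on which the groups overlapped.

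**Figure D3:**
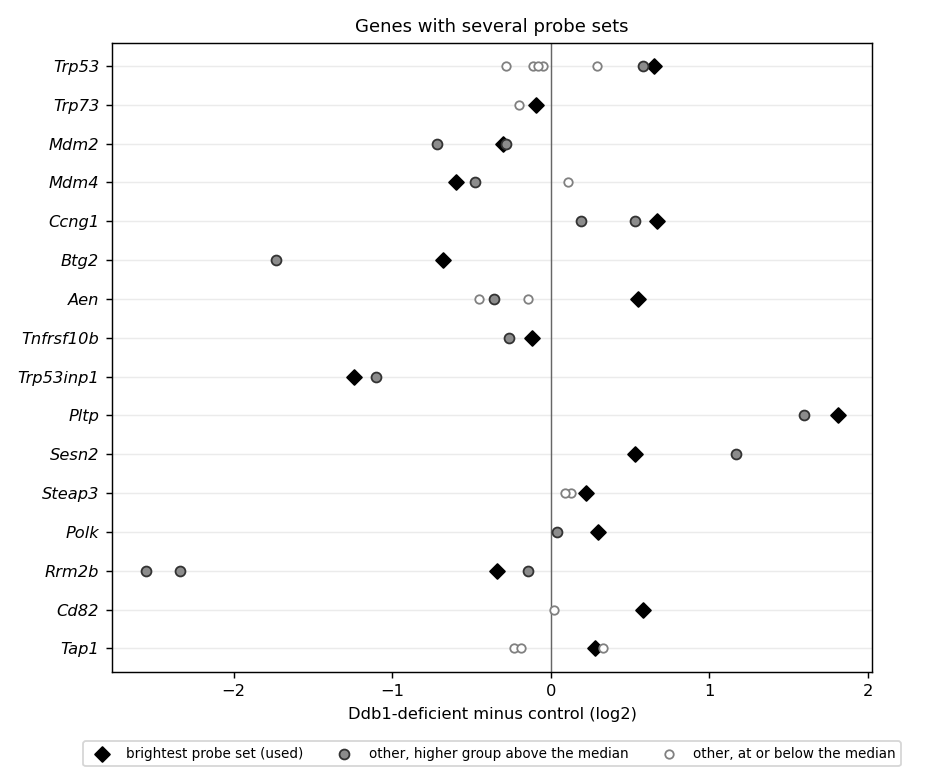
Difference, *Ddb1*-deficient minus control (log2, horizontal axis), of every probe set of the 16 genes with several, the brightest as a black diamond. *Pltp* and *Trp53inp1* have 2 probe sets each, at 1.81 and 1.60 and at -1.24 and -1.10, whereas *Rrm2b* ranges from -2.55 to -0.14.

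The spread between replicates was of the size of most differences. Over the members, the *Ddb1*-deficient arrays lay a median of 0.37 apart, the control arrays 0.29, and the groups 0.33. The difference was larger than both gaps for 12 members (37.5%), against 28.7% of all genes. The widest gaps were those of *Aen* (2.07), *Pmaip1* (1.55) and *Gadd45a* (1.28) between the *Ddb1*-deficient arrays and of *Pmaip1* (1.12) and *Mdm2* (0.96) between the control arrays. *Aen* and *Gadd45a* were higher on *Ddb1*-deficient replicate 1 and *Pmaip1* on replicate 2, so neither array was the higher one throughout.

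Further lists of the pathway were read in the same fit, and none of their genes passed the test after adjustment. Most of their genes had the higher group above the median of all probe sets. Of the 12486 genes of the array that did, 949 were higher and 1222 lower at an unadjusted p under 0.05 by limma. Of 19 measured upstream regulators, 0 were higher and 3 lower at an unadjusted p under 0.05, where 4.90% and 6.05% of all genes were, with a median difference of -0.18. The 3 became 0 without control replicate 2, and 1 without control replicate 1 or with only probe sets above the median. The kinases *Atm* and *Chek1*, which signal DNA breaks and stalled forks to Trp53, differed by -1.25 and -0.68 with separate arrays. *Atm* was not among the 3, at an unadjusted p of 0.052 by limma. *Rchy1*, a ubiquitin ligase for Trp53, differed by -1.06, and *Crebbp*, an acetyltransferase that coactivates Trp53, by -0.62. Of 29 measured further targets, 2 were higher and 6 lower by the same measure, with a median of 0.02 and a range of -4.36 to 1.27. The 6 became 3 without control replicate 2 and 3 without *Ddb1*-deficient replicate 2. The 2 became 1 without either control array and 4 without either *Ddb1*-deficient array.

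The farthest of these was *Bcl6*, a transcriptional repressor, at 2.39 and 1.69 in *Ddb1*-deficient cells, against 6.47 and 6.33 in control cells. *Cyfip2*, of the actin-regulating WAVE complex, differed by -2.10, *Triap1*, a small survival protein, by -1.62, and *Dram2*, of autophagy, by 1.27, all with separate arrays. The neutrophil markers, 6 of 6 lower, summed to 337 and 241 in *Ddb1*-deficient cells, against 8028 and 9737 in control cells, and their part in these lists was not tested.

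The 18 genes of the G2 and M phases, which arrest by Trp53 lowers, had 0 higher and 8 lower at an unadjusted p under 0.05, where 6.05% of all genes were lower, and 11 were lower with separate arrays, where 18.5% of all genes were. Their median difference was -0.67, and 0 passed after adjustment. All 18 had the higher group above the median of all probe sets, where falls were more common. Of the 12486 genes with the higher group above that median, 1222 were lower at an unadjusted p under 0.05 by limma. Of the same genes 3144 were lower with separate arrays, and their median difference was -0.04. The part of Trp53, or of the uneven cell types, in the differences of the G2 and M genes was not tested. *Cdk1*, the kinase that starts mitosis, read 4.98 and 2.68 in *Ddb1*-deficient cells, against 5.88 and 6.69 in control cells, both *Ddb1*-deficient arrays being lower, replicate 2 by far. *Bub1*, of the spindle checkpoint, differed by -2.20, *Top2a*, the topoisomerase of dividing cells, by -1.73, and *Cdc20*, an activator of the anaphase-promoting complex, by -1.19. *Aurka* and *Plk1*, mitotic kinases, overlapped between the groups at 0.52 and 0.00. The count of 8 was 2 without control replicate 1, 3 without control replicate 2 and 5 without *Ddb1*-deficient replicate 2.

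**Figure D4:**
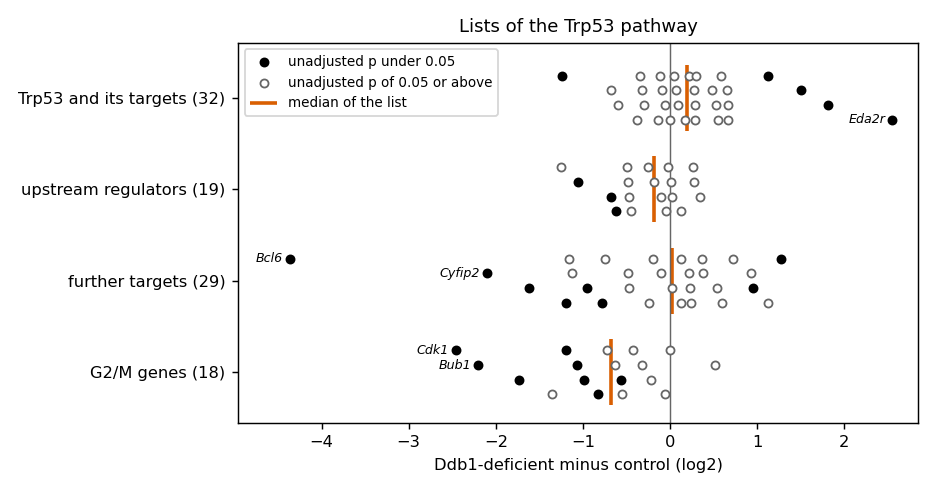
Difference, *Ddb1*-deficient minus control (log2, horizontal axis), of each measured gene of 4 lists, black where the unadjusted p was under 0.05, with the median of each list as an orange bar; points are stacked only to keep them apart. The medians were 0.19, -0.18, 0.02 and -0.67 from top to bottom, and *Bcl6* at -4.36 lies farthest from 0.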

How the data were processed

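RNA of LSK cells from 4 samples, 2 *Ddb1*-deficient and 2 control, was amplified from 20 ng in 2 cycles and hybridized to 1 array each. The deposited table holds, for 45101 probe sets, the RMA intensity that the authors computed in GeneSpring 7, on a linear scale. The authors' log2 values, deposited as the series matrix, are relative to the control mean. They equal the log2 of that table, less the mean of the control arrays for each probe set, within 2e-06. The authors' t-test table holds their p-values and fold changes and was not used. The log2 intensity was taken without a pseudocount. After 64 control probe sets were left out, 37463 probe sets carried 1 gene name, 1460 several and 6114 none. Names were updated with the RefSeq gene table, which matched 34640 probe sets and renamed 4907. The brightest probe set stood for each of 20523 genes.

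Groups, taken from the labels, were compared by limma (version 3.58.1, R 4.3.3; lmFit, eBayes) over all genes, with 2 residual and 1.96 prior degrees of freedom and two-sided p-values adjusted by Benjamini-Hochberg. The threshold was an adjusted p of 0.05. The fit was tested on simulated data. "Separate" means that the 2 arrays of a group do not overlap the 2 of the other, and intervals are 95% intervals of the fit without adjustment.

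Members and lists were chosen with earlier results of these data known. Named in full were *Trp53*, *Mdm2*, *Mdm4*, members with an unadjusted p under 0.05 and the 5 largest positive and 5 largest negative differences with separate arrays, all with the higher group above the median; *Aen*, *Pmaip1*, *Ddit4*, *Sesn2* and *Cd82* were added after their values were seen. From each further list of the pathway up to 4 genes with separate arrays and the largest differences were named, and *Aurka* and *Plk1* were added after their values were seen.

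The alternatives were the methods' t-test, eBayes with trend and robust, a replicate block, an adjusted p of 0.1, the series matrix, arrays that were centred on the median or quantile normalized again, each array left out, and other choices of probe set: every one, those above the median alone, those not ending in _x_at or _s_at, or a gene's mean.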

Additional observations from a re-analysis of the deposited data

How the results depend on the processing

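No member passed an adjusted p of 0.05 in any of the alternative fits, nor an adjusted p of 0.1 in the limma fit of the report. Across 13 alternatives, 21 of 32 members kept the sign of their difference and 11 did not in at least 1. The t-test, eBayes with trend and robust, the replicate block and the series matrix leave the difference as it is, so they could not change a sign. For a member with 1 probe set the choices of probe set could not either. Of members at an unadjusted p under 0.05, 4 were higher and 1 lower. For the alternative fits, those with an array left out among them, the share of all genes is not given. A change of count between fits is therefore not read as a result about the members. Quantile normalization again gave 8 higher, with *Ccng1*, *Cd82*, *Ddit4* and *Plk2* added. Every probe set gave 7 higher and 4 lower of 63, and the mean of all probe sets gave 2 lower. With an array left out the count was 2 to 5 higher, 2 without either control replicate, and 1 to 2 lower. Members with separate arrays and lower were 10 over every probe set, and 6 to 10 with an array left out, fewer arrays making separation easier. The median difference ran from 0.02 over every probe set to 0.29 with only probe sets above the median, and from 0.08 to 0.20 with an array left out.

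Differences near 0 changed sign. *Perp* was 0.00 after quantile normalization again, *Ei24* was -0.04 with centred arrays, and *Aen* was -0.10 as the mean of its probe sets. With an array left out the difference ran from -0.78 to 0.18 for *Mdm2*, -0.47 to 0.20 for *Phlda3*, -0.04 to 0.14 for *Perp*, -0.15 to 0.03 for *Fas*, -0.19 to 0.20 for *Ei24*, -0.49 to 1.58 for *Aen*, -0.03 to 0.63 for *Polk*, -0.60 to 0.95 for *Pmaip1*, -0.04 to 0.59 for *Tap1*, -0.66 to 0.02 for *Fdxr* and -0.43 to 0.24 for *Trp73*. The median of the further targets was -0.04 with only probe sets above the median. With an array left out it ran from -0.10 to 0.16 and that of the upstream regulators from -0.22 to 0.04. The causes were not tested.

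With the replicate number as a block, 3 members were higher at an unadjusted p under 0.05, *Eda2r*, *Pltp* and *Trp53*, 1 was lower, and 0 were called after adjustment in the replicate block. The deviations of same-numbered samples correlated at -0.015 across 20523 genes, so the numbers were not taken as pairs, although same-numbered arrays also matched in *Xist* and *Kdm5d*, that is in sex. The interval of *Ddit4*, a bright gene with close replicates, spanned 0 by limma, which moderates the variance of each gene with that of the others. The methods' t-test on the same 4 arrays gave *Ddit4* an unadjusted p of 0.022 and an adjusted p of 0.555. For dim members the array gives little more than background.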
